A study of Mus musculus with 9 samples.

Results

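Platelets are activated through receptors that carry an immunoreceptor tyrosine-based activation motif (ITAM), and the signal ends in the switch of integrins to their ligand-binding state. The 10 genes described here encode steps of that route. They were given by name, and every non-control probe whose gene name matched was used, together with the matching gene names of the deposited log2 table. All 10 were found, on 18 probes that all passed the filter on dim probes, among 29410 genes tested. Fcer1g is the shared ITAM chain, Syk, Fyn, Lyn and Btk are kinases, Lcp2 is an adaptor, Plcg2 is a phospholipase, Vav1 and Rasgrp2 are exchange factors, and Fermt3 is an integrin activator.

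RNA came from mature megakaryocytes (mMKs) of mouse bone marrow, enriched by positive selection for CD41 and then CD42d after red cells had been lysed. The irradiated mice received a single total-body dose of 5 Gy of γ-rays and were sampled 1 day (1 dpi) or 3 days (3 dpi) later, and the Ctrl mice were sham-irradiated. All were male, and each experiment used different donors. The labels give no strain, genotype or age, and while the study's methods list wild-type C57BL/6 mice beside knockout and GFP-LC3 strains, which of them the arrays used is not given in the sources used here. Each group has 3 arrays, so 9 arrays enter every value, and the number of arrays limits the precision. With 3 arrays in each of the groups compared, the smallest p that an exact permutation test (two-sided) allows is 0.10. Spots well above background made up 69.1%, 79.5% and 80.8% on Ctrl replicates 1, 2 and 3, 72.3%, 74.8% and 75.6% on the 1 dpi arrays, and 81.8%, 81.6% and 81.8% on the 3 dpi arrays. Before scaling, the 75th percentile of log2 signal was 10.03, 10.62 and 10.66 on the Ctrl arrays. It was 9.33, 9.45 and 9.43 at 1 dpi, and 10.37, 10.55 and 10.53 at 3 dpi. The lower intensity of the 1 dpi arrays cannot be told apart from the time point. Ctrl replicate 1 was alone on its slide, and the other 8 arrays shared another. A fit with slide as a fixed block is therefore the same as one without Ctrl replicate 1, and is no separate check of it.

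In platelets, collagen binding to glycoprotein VI (Gp6) leads Src family kinases to phosphorylate the ITAM of the Fc receptor γ chain, which has no ligand-binding part of its own, and Syk docks there. Syk phosphorylates the adaptors Lat and Lcp2 (SLP-76), and Btk and Vav proteins assemble with them to activate phospholipase Cγ. The calcium and diacylglycerol that follow engage Rasgrp2 (CalDAG-GEFI), Rap1 and then talin and kindlin-3 (Fermt3), which bind the tail of integrin αIIbβ3. Most of these proteins also serve myeloid or lymphoid cells, where the same γ chain carries signals of Fc and C-type lectin receptors.

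Small shifts in both directions marked the members at 1 dpi, and none reached 2-fold on the brightest probe of its gene, while a dimmer Lcp2 probe, described below, fell by over 2-fold. The γ chain gene Fcer1g, the kinase gene Lyn and the exchange factor gene Vav1 were higher than in Ctrl, and the adaptor gene Lcp2 and the kinase gene Btk were lower. At 3 dpi Lyn alone passed the test, and between 1 and 3 dpi Lcp2 alone did. A level here is the log2 signal of the gene's brightest probe minus the 75th percentile of its array, and a gene is said to rise or fall where limma's Benjamini-Hochberg adjusted p was under 0.05. It is called where the change was also at least 2-fold. Under this scaling all genes together were shifted, with a median log2 fold change of 0.25 (1 dpi), 0.11 (3 dpi) and -0.11 (3 against 1 dpi). Values relative to it are given beside the member values that passed the test and beside some list medians. At 1 dpi Syk, Fyn, Rasgrp2 and Fermt3 were above 0 as fitted, without passing, and at -0.16, -0.22, -0.11 and -0.11 relative to all genes. Between 3 and 1 dpi Plcg2 and Rasgrp2 were below 0 as fitted, without passing, and at 0.06 and 0.08 relative to all genes. The comparisons with Ctrl share the same Ctrl arrays.

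At 1 dpi limma called 0 of 10 members higher, against 12.3% of all genes, and 0 of 10 lower, against 2.87%. Without a minimum fold 3 members rose, against 34.8% of all genes, and 2 fell, against 21.1%, and this split changed with the scaling, to 0 and 3 with quantile values, 0 and 2 with the array median, and 1 and 3 with normexp and in the deposited table. At 3 dpi 0 of 10 were called higher or lower, against 6.98% and 1.82% of all genes, and without a minimum fold 1 member rose and 0 fell, against 16.9% and 15.1%, while 1 rose and 1 fell with quantile, normexp and deposited values, and 0 and 0 with the array median. Between 3 and 1 dpi 0 of 10 were called higher or lower, against 3.97% and 4.82%, and without a minimum fold 1 rose and 0 fell, against 19.8% and 24.9%, while 2 rose and 2 fell with quantile and deposited values and 2 and 1 with normexp. At an unadjusted p under 0.05 in limma 5, 3 and 5 members passed in these comparisons, none of them with a 2-fold change, against 62.1%, 41.5% and 52.5% of all genes. The methods' t-test, unadjusted, gave 6, 3 and 5, against 53.3%, 35.8% and 57.5% of all genes, and, adjusted, gave 4, 1 and 5, against 42.9%, 24.2% and 48.7%, with 0 members called in each.

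The members' median log2 fold change was 0.11 at 1 dpi, 0.12 at 3 dpi and -0.04 between them, which is -0.14, 0.01 and 0.07 relative to all genes, and each of these signs depended on the scaling. With the array median the values were -0.21, -0.01 and 0.15, and they were 0.05, -0.06 and 0.08 in the deposited table, while the last was 0.07 with quantile or normexp values. The arrays of the groups compared did not overlap for 6, 4 and 6 of the 10 members, against 67.5%, 47.0% and 65.5% of all genes. The split of calls depended on the scaling. Among genes called at 1 dpi, 81.1% were higher, against 56.2% after quantile normalization, 48.8% after scaling to the array median, 68.8% after background modelling by normexp with quantile normalization, and 50.3% in the deposited table. At 3 dpi the share was 79.4%, against 71.2%, 71.9%, 79.2% and 68.8%. For 3 against 1 dpi it was 45.2%, against 62.4%, 67.2%, 52.0% and 64.1%.

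**Figure D1:**
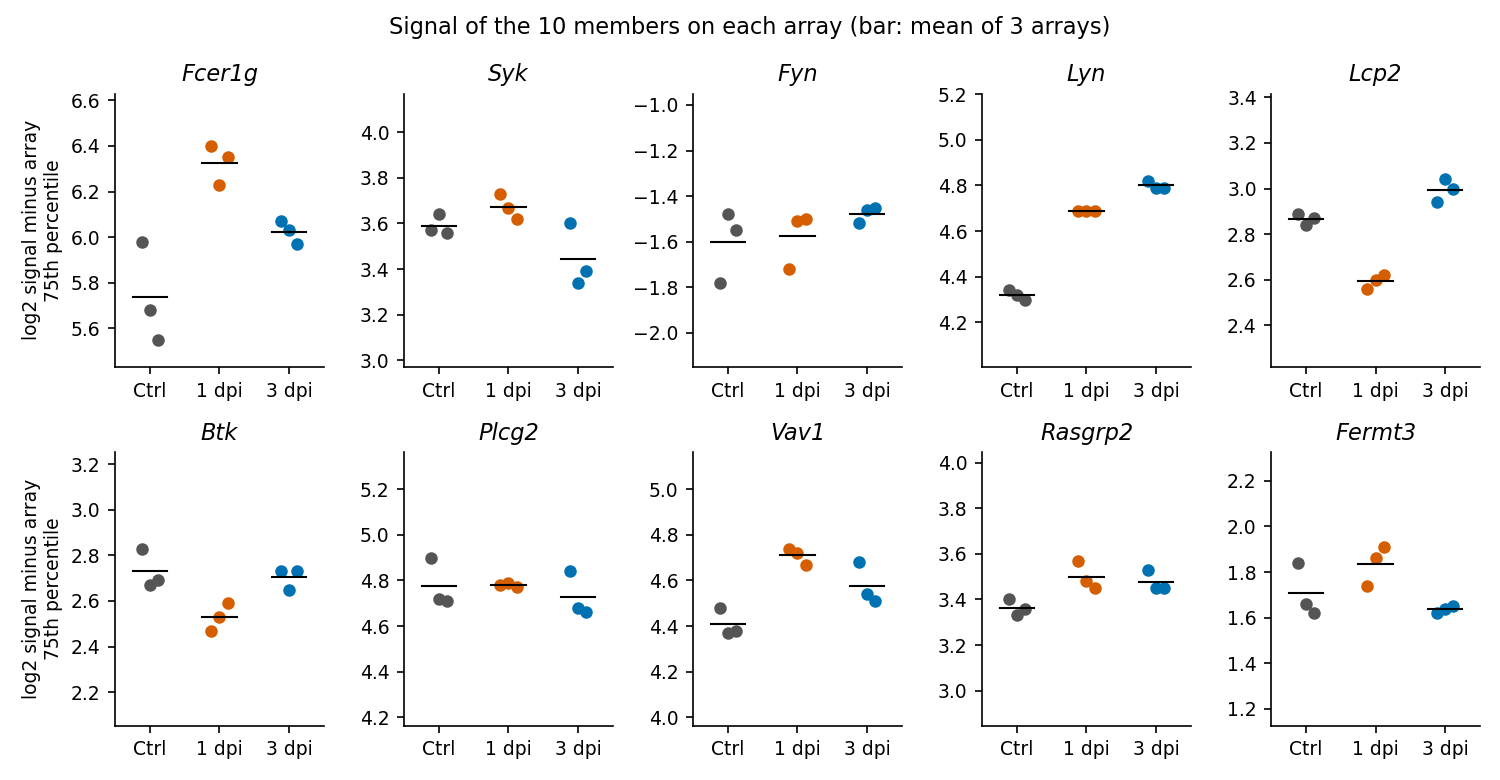
Log2 signal minus the array's 75th percentile (vertical axis) for each of the 10 members on the 3 Ctrl, 3 1 dpi and 3 3 dpi arrays; points are arrays and bars are means of 3 arrays. The 1 dpi arrays lie above all Ctrl arrays for Fcer1g, Lyn and Vav1 (Vav1 is at -0.02 log2 after scaling to the array median) and below them for Lcp2 and Btk.

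The Fc receptor γ chain, Fcer1g, is the ITAM carrier of the glycoprotein VI complex. It read 5.98, 5.68 and 5.55 in Ctrl, 6.40, 6.23 and 6.35 at 1 dpi, and 6.07, 6.03 and 5.97 at 3 dpi. The 1 dpi arrays all lay above the Ctrl arrays, Ctrl replicate 1 was the highest of its group, and a single 3 dpi array lay within the Ctrl range. Fcer1g rose by 0.59 log2 at 1 dpi (SE 0.11, adjusted p 0.0031, higher in 3 of 3 arrays), which is 0.34 above the median gene. This direction held under the other scalings, but the test was passed under none of them, with 0.29 (adjusted p 0.067) after quantile normalization, 0.27 (0.24) after scaling to the array median, 0.27 (0.054) with normexp and 0.16 (0.32) in the deposited table. At 3 dpi the value was 0.28 (SE 0.11, adjusted p 0.093). Without Ctrl replicate 1, which is the same fit as slide as a fixed block, it was 0.40 with an adjusted p of 0.0053. It also passed with slide as a random block. Between 3 and 1 dpi it was -0.31 (adjusted p 0.056, lower in 3 of 3 arrays), and it was 0.05 in the deposited table. That difference passed in 9 of 22 alternatives, with the replicate block, slide as a random or fixed block, only the 2 groups compared, the probes above background on all 9 arrays, the t-test with or without adjustment, and without Ctrl replicate 1 (adjusted p 0.0063) or 3 (adjusted p 0.040), and it was 0.00 after quantile normalization. Of these, the fixed slide block repeats the fit without Ctrl replicate 1.

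The kinases next to the ITAM did not move together. Lyn, a Src family kinase that phosphorylates ITAMs and also inhibitory motifs, read 4.34, 4.32 and 4.30 in Ctrl, 4.69 on each 1 dpi array, and 4.82, 4.79 and 4.79 at 3 dpi. The 3 groups did not overlap, with Ctrl lowest and 3 dpi highest. Lyn rose by 0.37 log2 at 1 dpi (SE 0.05, adjusted p 0.00057, higher in 3 of 3 arrays) and by 0.48 at 3 dpi (SE 0.05, adjusted p 0.00022, higher in 3 of 3), which is 0.12 and 0.37 relative to all genes. At 1 dpi the value was 0.12 (adjusted p 0.062) after quantile normalization, 0.06 (0.72) after scaling to the array median and 0.14 (0.061) in the deposited table, and it passed the test with normexp. The rise at 3 dpi passed under the 75th percentile, quantile, normexp and deposited values and missed the threshold after scaling to the array median, at 0.36 (adjusted p 0.063). A second, dimmer Lyn probe gave 0.20 at 1 dpi and 0.21 at 3 dpi (adjusted p 0.056 and 0.065). The difference of 0.11 between 3 and 1 dpi did not pass (adjusted p 0.11), while it passed at 0.28 after quantile normalization, 0.29 with normexp and 0.26 in the deposited table. This difference also passed in the methods' t-test, with or without adjustment.

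Fyn, the other Src family kinase among the members, was a dim signal with overlapping groups. Its arrays ranged from -1.78 to -1.48 in Ctrl, from -1.72 to -1.5 at 1 dpi and from -1.52 to -1.45 at 3 dpi. The log2 fold change was 0.02 at 1 dpi (SE 0.10, adjusted p 0.84), 0.13 at 3 dpi (adjusted p 0.35) and 0.10 between them (adjusted p 0.42). At 1 dpi the sign depended on the scaling, with -0.09 after quantile normalization, -0.29 after scaling to the array median, -0.06 with normexp and -0.09 in the deposited table.

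Syk, the kinase that docks on the phosphorylated ITAM, was measured on 4 probes, and they differed. Its brightest probe read 3.57, 3.64 and 3.56 in Ctrl, 3.73, 3.67 and 3.62 at 1 dpi, and 3.60, 3.34 and 3.39 at 3 dpi. Ctrl and 1 dpi arrays overlapped, and the 3 dpi arrays all lay below the 1 dpi arrays. The change was 0.08 at 1 dpi (SE 0.08, adjusted p 0.38), -0.14 at 3 dpi (adjusted p 0.22) and -0.23 between 3 and 1 dpi, which missed the threshold at an adjusted p that rounds to 0.05. The sign at 1 dpi turned to -0.02 after quantile normalization, -0.23 after scaling to the array median and -0.03 with normexp. Without 3 dpi replicate 1, the highest of its group, the values were -0.22 at 3 dpi (adjusted p 0.041) and -0.30 between 3 and 1 dpi (adjusted p 0.0092), and without Ctrl replicate 1 the latter was -0.23 with an adjusted p of 0.041. The 3 dpi value also passed at -0.23 after quantile normalization and -0.22 with normexp. The value between 3 and 1 dpi also passed at -0.21 after quantile normalization, with slide as a random or fixed block, among the probes above background on all 9 arrays, for the mean of all probes (-0.48) and in the deposited table, and it was -0.04 with the array median.

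Lcp2, the SLP-76 adaptor that holds Btk, Vav1 and the phospholipase at the membrane, was lower at 1 dpi and back at or above the Ctrl level at 3 dpi on its brightest probe. Its brightest probe read 2.89, 2.84 and 2.87 in Ctrl, 2.56, 2.60 and 2.62 at 1 dpi, and 2.94, 3.04 and 3.00 at 3 dpi. The 1 dpi arrays lay below all others, and the 3 dpi arrays lay just above Ctrl. Lcp2 fell by 0.27 log2 at 1 dpi (SE 0.05, adjusted p 0.0041, lower in 3 of 3 arrays) and rose by 0.40 between 1 and 3 dpi (SE 0.05, adjusted p 0.00094, higher in 3 of 3). Relative to all genes these values are -0.52 and 0.51. Both passed under all 22 alternatives tried, from -1.26 to -0.26 and from 0.36 to 0.63. The difference at 3 dpi was 0.13 (adjusted p 0.12), against -0.13 for the mean of all probes and -0.64 in the deposited table.

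Lcp2 had 3 probes and Syk 4, and the first 30 bases of each are shown because probes of the same gene gave different changes. Each probe has 60 bases, and the array files give their positions on build mm9, plus strand for both genes.
Lcp2 probe 1: gaagtctaagagtgcatggcagacatgaga
Lcp2 probe 2: agaggacttcctgtctgtatcagatattat
Lcp2 probe 3: tcgaaataatccaacatcataggtgtaatt
Syk probe 1: cccagagcagcacacagtgattccctgtta
Syk probe 2: cctagaaatataggtgtttcctctgcattt
Syk probe 3: aagctaacataggactcaccctcacaacag
Syk probe 4: gaccacaggctcgatccaattataattaaa

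For Lcp2, probe 1 lies at chr11:33990902-33990961, probe 2 covers a span of 944 bases at chr11:33989677-33990620, and probe 3 lies inside that span at chr11:33989870-33989929. Probe 2 fell by 0.49 log2 at 1 dpi (adjusted p 0.0021) and probe 3 fell by 1.1 (adjusted p 5.8e-05). Probe 3, the dimmest, read -1.43, -1.53 and -1.51 in Ctrl, -2.68, -2.64 and -2.43 at 1 dpi, and -2.01, -2.21 and -2.18 at 3 dpi, so that its 3 dpi arrays were still below Ctrl. At 3 dpi it differed from Ctrl by -0.64 (adjusted p 0.0012), while probes 1 and 2 stood at 0.13 and 0.12 and did not pass. All 3 probes rose between 1 and 3 dpi, by 0.40, 0.60 and 0.45. The array files tie probe 3 to another transcript model than probes 1 and 2.

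For Syk, the brightest probe lies at chr13:52744088-52744147, probe 2 at chr13:52708988-52709047, probe 3 at chr13:52741275-52741334 and probe 4 at chr13:52738924-52738983. Probe 3 rose by 0.57 log2 at 1 dpi (adjusted p 0.012) and probe 4 by 0.68 (adjusted p 0.0008), each with all 1 dpi arrays above all Ctrl arrays. Probe 2 stood at 0.06 with overlapping groups, and at 3 dpi at -0.30 without passing (adjusted p 0.065), with all arrays below Ctrl. From 1 to 3 dpi probes 2, 3 and 4 changed by -0.36, -0.67 and -0.64 (adjusted p 0.025, 0.0071 and 0.0014). The array files tie the 4 probes to 3 different transcript records, and whether the differences reflect transcripts or the probes themselves was not tested.

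**Figure D2:**
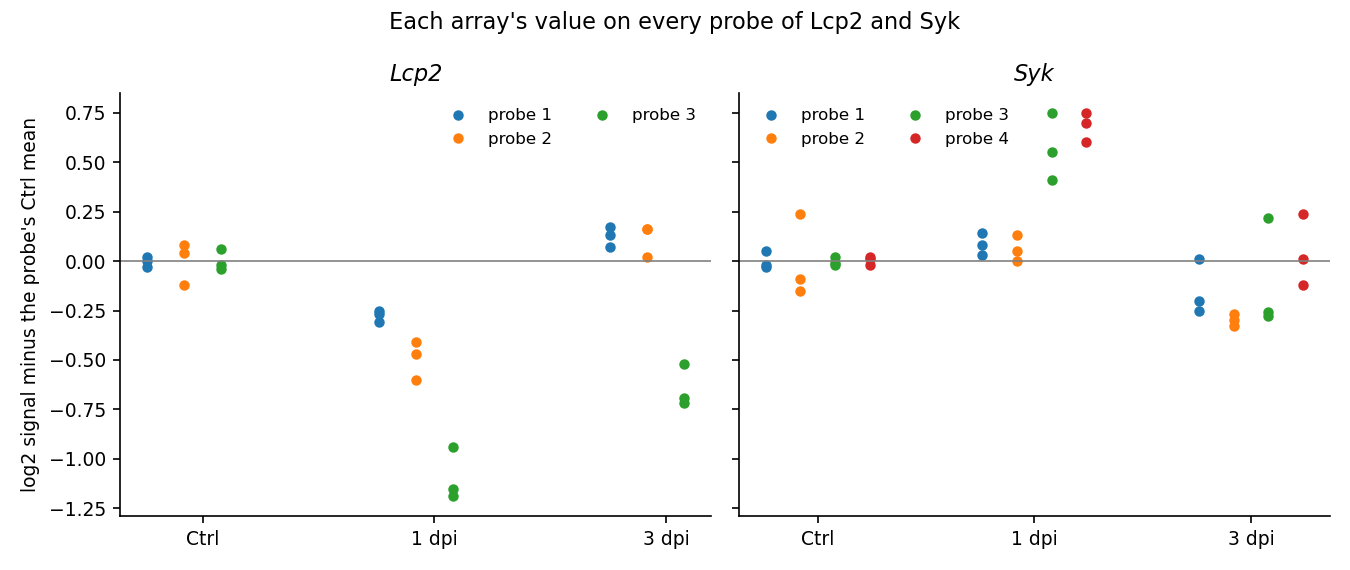
Log2 signal of each array minus the Ctrl mean of the same probe (vertical axis) for the 3 Lcp2 and 4 Syk probes in the Ctrl, 1 dpi and 3 dpi groups; points are arrays. All 3 Lcp2 probes are lower at 1 dpi and only probe 3 is lower at 3 dpi, while Syk probes 3 and 4 are higher at 1 dpi and probes 1 and 2 are close to Ctrl then, with probe 2 below all Ctrl arrays at 3 dpi.

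Which probe stands for a gene also separates the deposited log2 table from the values above. The table holds 1 line per gene name, and 26996 of its 27275 lines could be tied to a probe within 0.15 log2, among them those of all 10 members. For 4 of the 10 members, Syk, Lcp2, Btk and Rasgrp2, it carries a dimmer probe. The deposited Lcp2 values, from probe 3, were 8.75, 8.58 and 8.61 in Ctrl, 7.25, 7.34 and 7.56 at 1 dpi, and 8.14, 7.94 and 7.95 at 3 dpi. The groups did not overlap, with Ctrl highest and 1 dpi lowest, and Lcp2 at -1.26 was the 1 member called from that table. The deposited Syk values, from probe 3, gave 0.57 at 1 dpi (adjusted p 0.011) and -0.67 between 3 and 1 dpi (adjusted p 0.0065).

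Btk, the Tec family kinase that phosphorylates phospholipase Cγ2, read 2.83, 2.67 and 2.69 in Ctrl, 2.47, 2.53 and 2.59 at 1 dpi, and 2.73, 2.65 and 2.73 at 3 dpi. The 1 dpi arrays lay below all others, while Ctrl and 3 dpi overlapped. Btk fell by 0.20 log2 at 1 dpi (SE 0.07, adjusted p 0.037, lower in 3 of 3 arrays), -0.45 relative to all genes. The value stayed below 0 in all 22 alternatives, from -0.51 to -0.15, and missed the threshold in 12 of them. Among these were the fits without 1 array, at -0.15 without Ctrl replicate 1, -0.22 without Ctrl replicate 3, -0.17, -0.20 and -0.23 without 1 dpi replicates 1, 2 and 3, and -0.20 without 3 dpi replicate 2 or 3. The threshold was also missed with the replicate number as a block, slide as a fixed block, only the 2 groups compared, no filter on dim probes and the adjusted t-test. A dimmer Btk probe gave -0.33 (adjusted p 0.046). The values of -0.03 at 3 dpi and 0.17 between 3 and 1 dpi did not pass (adjusted p 0.77 and 0.073), though the latter did without Ctrl replicate 1 (adjusted p 0.028), with slide as a block and in the t-test.

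Plcg2, the phospholipase that releases the calcium signal, had groups with nearly the same mean under the 75th percentile. Its arrays read 4.90, 4.72 and 4.71 in Ctrl, 4.78, 4.79 and 4.77 at 1 dpi, and 4.84, 4.68 and 4.66 at 3 dpi. All 3 groups overlapped, and the changes were 0.00 at 1 dpi (SE 0.08, adjusted p 0.98), -0.05 at 3 dpi and -0.05 between them. At 1 dpi the value was below 0 and passed the test at -0.26 after quantile normalization, -0.28 with normexp and -0.27 in the deposited table. Between 3 and 1 dpi the sign turned under those scalings, to 0.13, 0.14 and 0.11, and to 0.14 after scaling to the array median.

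Among the exchange factors, Vav1, which activates Rac downstream of Syk, read 4.48, 4.37 and 4.38 in Ctrl, 4.74, 4.72 and 4.67 at 1 dpi, and 4.68, 4.54 and 4.51 at 3 dpi. The Ctrl arrays lay below all irradiated ones. Vav1 rose by 0.30 log2 at 1 dpi (SE 0.07, adjusted p 0.0071, higher in 3 of 3 arrays), which is 0.05 relative to all genes. Under the other scalings the value was between 0.04 and 0.06 without passing, and it turned to -0.02 after scaling to the array median. The change was 0.16 at 3 dpi (adjusted p 0.11) and -0.14 between 3 and 1 dpi (adjusted p 0.14), and without 3 dpi replicate 1 the latter was -0.19 with an adjusted p of 0.048.

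Rasgrp2, the calcium-sensing exchange factor for Rap1, read from 3.33 to 3.40 in Ctrl, from 3.45 to 3.57 at 1 dpi and from 3.45 to 3.53 at 3 dpi. The irradiated arrays lay above Ctrl in both groups by little, at 0.14 (SE 0.06, adjusted p 0.085) and 0.11 (adjusted p 0.20), and after scaling to the array median the values were -0.18 and -0.01. In the deposited table, which carries its dimmer probe, the 3 dpi value was -0.04. For 3 against 1 dpi the value was -0.03 (adjusted p 0.75), and it was 0.17 after scaling to the array median.

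Fermt3 encodes kindlin-3, the last step before the integrin. It read 1.84, 1.66 and 1.62 in Ctrl, 1.74, 1.86 and 1.91 at 1 dpi, and 1.62, 1.64 and 1.65 at 3 dpi. Ctrl overlapped with both irradiated groups, whose own arrays were separate. The change was 0.13 at 1 dpi (SE 0.08, adjusted p 0.17), -0.06 at 3 dpi (adjusted p 0.56) and -0.20 between them (adjusted p 0.072), and the first of these was -0.18 after scaling to the array median. Without Ctrl replicate 1, the highest of its group, the 1 dpi value was 0.20 (adjusted p 0.029) and that between 3 and 1 dpi was -0.20 (adjusted p 0.020). The latter also passed at the quantile, normexp and deposited values, with slide as a block, with only the 2 groups compared and in the t-test, and the former with slide as a block.

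**Figure D3:**
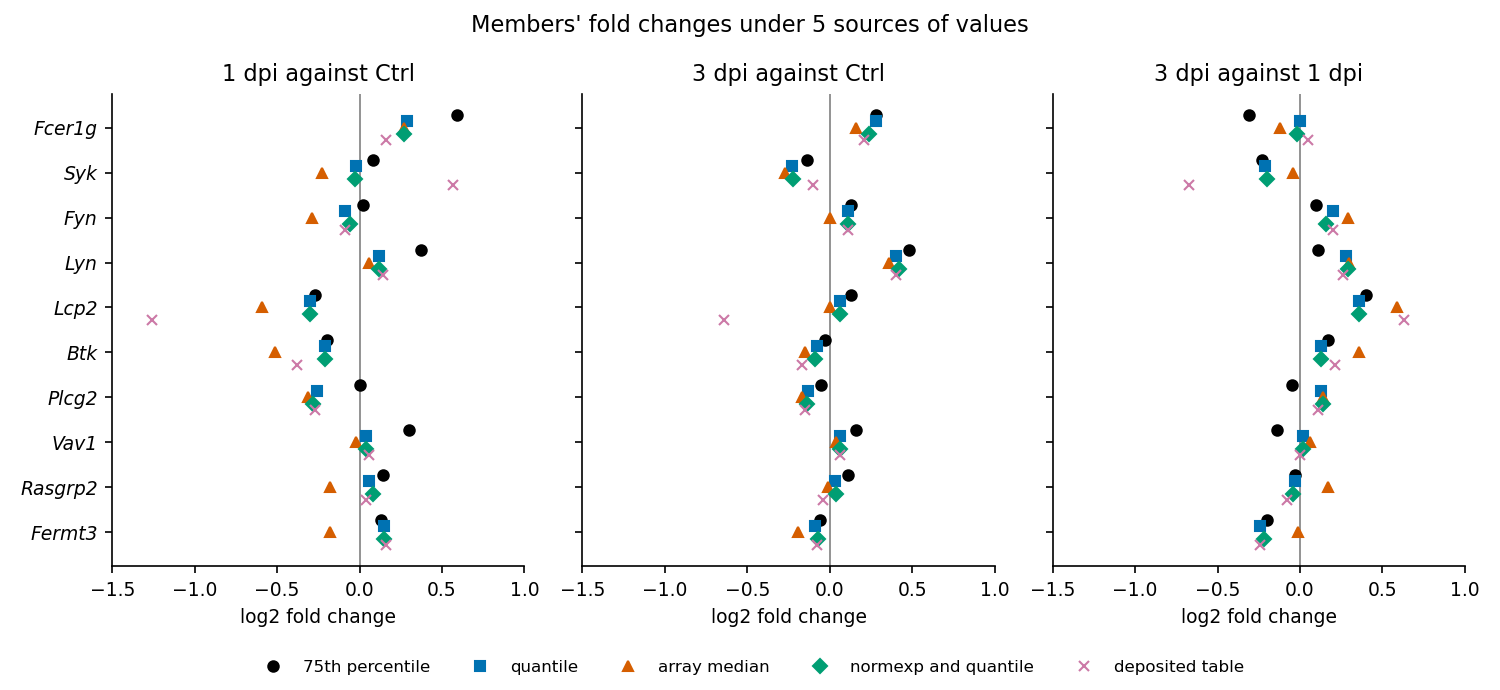
Log2 fold change (horizontal axis) of each member in the 3 comparisons, computed from the values scaled to the array's 75th percentile, to quantiles, to the array median, with normexp and quantile normalization, and from the deposited table. Lcp2 and Btk are below 0 at 1 dpi under all 5, Fcer1g and Lyn are above 0, and Vav1 is above 0 except for -0.02 with the array median.

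Of 54 other genes of the route, all above background, limma called 0 at 1 dpi, against 12.3% of all genes higher and 2.87% lower. At an unadjusted p with a 2-fold change 0 passed. Without a minimum fold 12 rose and 11 fell, against 34.8% and 21.1%. At an unadjusted p under 0.05, 28 passed, against 62.1% of all genes. At 3 dpi 2 were called, both higher, against 6.98% higher and 1.82% lower. Then 11 rose and 7 fell without a minimum fold, against 16.9% and 15.1%. From 1 to 3 dpi 1 was called higher, against 3.97% higher and 4.82% lower, and 15 rose and 7 fell, against 19.8% and 24.9%. The list's median was 0.01, 0.04 and 0.04, or -0.23, -0.07 and 0.16 relative to all genes, and the first 2 changed sign with the scaling. At 1 dpi it was -0.07 with quantile values, -0.30 with the array median, -0.05 with normexp and -0.06 in the deposited table, and at 3 dpi it was -0.08 with the array median and -0.12 in the deposited table. The deposited table, with other probes for some genes, called 6, 4 and 4 of them.

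The activating platelet receptors Gp6 and Clec1b were higher at 3 dpi and did not pass at 1 dpi. Gp6, the collagen receptor that pairs with the γ chain, read -0.82, -0.95 and -0.92 in Ctrl, -0.81, -0.86 and -1.04 at 1 dpi, and 0.09, 0.07 and 0.01 at 3 dpi. The 3 dpi arrays lay above all others, and Ctrl and 1 dpi overlapped. Gp6 rose by 0.95 log2 at 3 dpi (SE 0.08, adjusted p 6.6e-05, higher in 3 of 3 arrays), from 0.83 to 0.95 across the scalings, and by 0.96 between 1 and 3 dpi (adjusted p 9.6e-05). Clec1b (CLEC-2), the podoplanin receptor, whose hemITAM also recruits Syk, read 2.70, 2.54 and 2.54 in Ctrl, 2.45, 2.51 and 2.51 at 1 dpi, and 3.27, 3.29 and 3.23 at 3 dpi. It rose by 0.67 at 3 dpi (SE 0.07, adjusted p 0.00016, higher in 3 of 3), from 0.55 to 0.67 across the scalings. The 1 dpi values were -0.01 for Gp6 and -0.10 for Clec1b and did not pass, though the 1 dpi arrays of Clec1b all lay below Ctrl. Mpig6b, an inhibitory receptor of megakaryocytes that restrains this signalling, read -1.32, -1.51 and -1.52 in Ctrl, -1.30, -1.03 and -1.28 at 1 dpi, and -0.27, -0.26 and -0.27 at 3 dpi. Its rise of 1.18 at 3 dpi (SE 0.09, adjusted p 5.5e-05, higher in 3 of 3) was between 1.04 and 1.18 across the scalings, and it was called, while at 1 dpi it stood at 0.24 without passing, above all Ctrl arrays (-0.07 with the array median). The other 3 inhibitory receptors of the list did not pass at 3 dpi, with 0.02 for Pecam1, 0.17 for Ceacam1 (-0.13 in the deposited table) and 0.04 for Pirb, of which Pecam1 (-0.10) and Pirb (-0.08) were below 0 with the array median and Pirb also in the deposited table (-0.25). Pirb rose by 0.94 at 1 dpi (adjusted p 7.4e-05), which was 0.28 after quantile normalization and 0.17 in the deposited table.

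Yes1, a further Src family kinase, was the other partner called at 3 dpi. It read -4.54, -4.21 and -4.17 in Ctrl, -3.94, -3.97 and -4.16 at 1 dpi, and -2.92, -2.66 and -2.87 at 3 dpi. The 3 dpi arrays stood well above the rest, with a rise of 1.49 log2 (SE 0.12, adjusted p 7.2e-05, higher in 3 of 3 arrays), which was 0.83 with normexp and not called there. Between 1 and 3 dpi Yes1 rose by 1.21 (adjusted p 0.00026), and it was the 1 partner called in that comparison.

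At the integrin itself the subunits differed. Itga2b, the αIIb subunit that carries the CD41 epitope used for enrichment, read 0.38, 0.32 and 0.29 in Ctrl, 1.04, 1.04 and 0.98 at 1 dpi, and 0.19, 0.38 and 0.33 at 3 dpi. The 1 dpi arrays lay above all others. Itga2b rose by 0.69 log2 at 1 dpi (SE 0.07, adjusted p 0.00013, higher in 3 of 3 arrays), from 0.37 to 0.72 across the scalings, and changed by -0.72 between 1 and 3 dpi (adjusted p 0.00017). Itgb3, the β3 subunit, stood at -0.17 at 1 dpi and 0.14 at 3 dpi, neither passing, with -0.37 at 3 dpi in the deposited table, while the 1 dpi value passed under each other scaling, from -0.53 to -0.33. It rose by 0.31 between 1 and 3 dpi on its brightest probe (SE 0.10, adjusted p 0.032), and its other probe stood at 0.01. Talin, Tln1, rose by 0.37 at 1 dpi (SE 0.07, adjusted p 0.0046), which was 0.05 to 0.07 under the quantile, normexp and median scalings and 1.02 on another probe in the deposited table, and changed by -0.41 between 1 and 3 dpi (adjusted p 0.0036). Rap1b, the main Rap1 GTPase of platelets, had -0.03 and -0.01 at 1 and 3 dpi with overlapping arrays.

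Receptors that signal through the γ chain were mostly higher after irradiation. Of 9 such receptors, all above background, limma called 5 higher at 1 dpi and 3 at 3 dpi, and 1 was higher at 3 than at 1 dpi, and none was called lower. Their median log2 fold change was 1.14, 0.95 and 0.04, or 0.89, 0.84 and 0.15 relative to all genes. Of all genes, 12.3%, 6.98% and 3.97% were called higher. With the array median 4 receptors were called at 1 dpi and 2 at 3 dpi, normexp called 2 at 3 dpi, and the 1 called from 1 to 3 dpi, Clec4n, was not called with quantile, normexp or deposited values. In the deposited table the last median was -0.01. Their summed signal, with the Ctrl mean at 1, was 1.05, 0.973 and 0.979 in Ctrl, 1.92, 1.90 and 1.92 at 1 dpi, and 1.53, 1.53 and 1.51 at 3 dpi, and the brightest of them over the 9 arrays was Fcgr3. Apart from Gp6, these are receptors of myeloid cells, mast cells and basophils.

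Fcgr1, the high-affinity IgG receptor, read -0.88, -1.05 and -1.04 in Ctrl, 1.58, 1.41 and 1.48 at 1 dpi, and 1.72, 1.73 and 1.69 at 3 dpi. The irradiated arrays stood above Ctrl without overlap, by 2.48 log2 at 1 dpi (SE 0.07, adjusted p 5.3e-07, higher in 3 of 3 arrays) and 2.71 at 3 dpi (adjusted p 3.2e-07, higher in 3 of 3). Clec4n (dectin-2), a fungal glycan receptor, read -0.72, -0.56 and -0.62 in Ctrl, 1.02, 1.03 and 0.88 at 1 dpi, and 2.10, 2.0 and 1.93 at 3 dpi. It rose at each step, by 1.61 at 1 dpi (SE 0.08, adjusted p 4.5e-06) and by a further 1.03 between 1 and 3 dpi (adjusted p 7e-05).

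Fcgr4, another activating IgG receptor, read 1.90, 1.54 and 1.55 in Ctrl, 3.50, 3.42 and 3.38 at 1 dpi, and 2.72, 2.56 and 2.55 at 3 dpi. Clec4d, a myeloid lectin receptor, read 3.21, 3.13 and 3.16 in Ctrl, 4.86, 4.86 and 4.83 at 1 dpi, and 3.92, 3.92 and 3.85 at 3 dpi. Both were highest at 1 dpi and without overlap between groups. Fcgr4 rose by 1.77 log2 (SE 0.11, adjusted p 1.5e-05) and Clec4d by 1.69 (SE 0.05, adjusted p 7.8e-07) at 1 dpi, in 3 of 3 arrays each. Fcer1a, the IgE-binding chain of mast cells and basophils, rose by 1.14 (SE 0.13, adjusted p 0.00028), which was 0.82 after scaling to the array median and not called there. Clec4e stood at 0.98 and 1.04 at 1 and 3 dpi, Oscar at 0.64 and 0.38, and all 4 values passed the test, those of Oscar not with the array median or in the deposited table. Fcgr3 had 0.05 and 0.09, neither passing, and both were below 0 under the 4 other scalings, from -0.26 to -0.02 at 1 dpi and from -0.09 to -0.02 at 3 dpi, with the 1 dpi value passing at -0.19 with quantile and with normexp values.

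**Figure D4:**
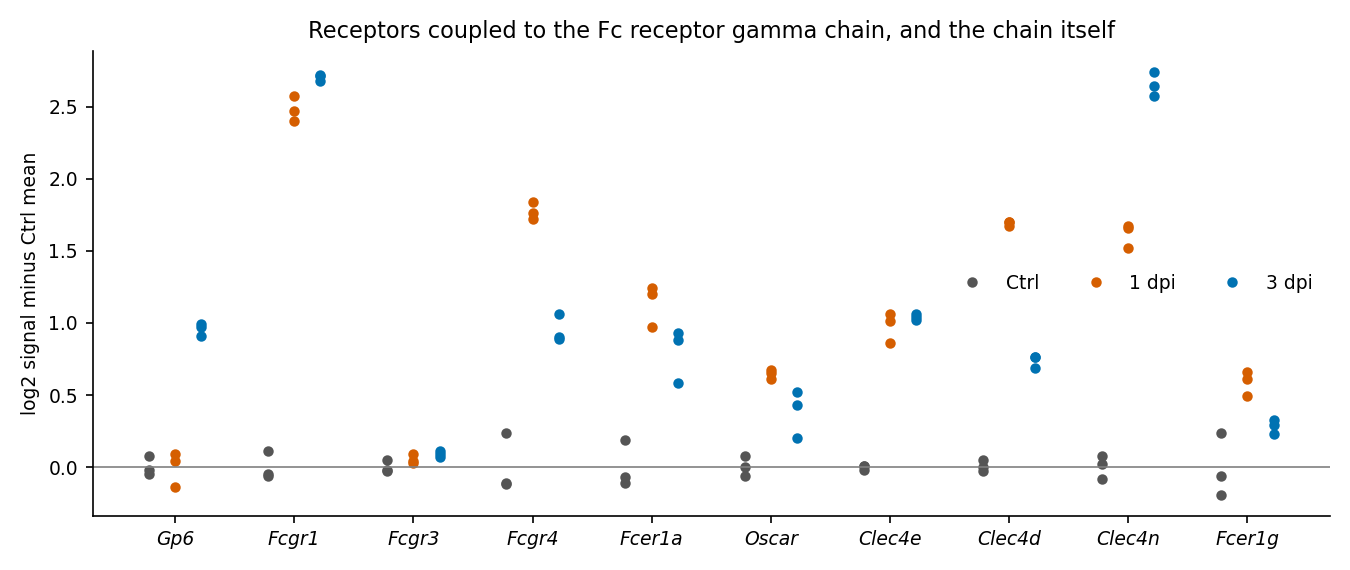
Log2 signal of each array minus the gene's Ctrl mean (vertical axis) for the 9 receptors that couple to the Fc receptor γ chain and for Fcer1g; points are the 3 arrays of each group. Fcgr1 and Clec4n reach 2.71 and 2.65 at 3 dpi, Gp6 is at 0.95 at 3 dpi, and the Fcgr3 means differ from Ctrl by 0.05 and 0.09 (both below 0 in the other scalings).

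The 250 bases before the start of Fcer1g and of the called receptors at 1 dpi with a RefSeq entry are shown, since the chain and these receptors were higher together at that time. They come from RefSeq on GRCm38.p6. Capitals mark a PU box (AGAGGAAG), a GAS (TTCNNNGAA) or an ISRE-type match (GAAANNGAA), on either strand. The positions are chr1:171234350-171234599 (minus strand) for Fcer1g, chr3:96293970-96294219 (minus strand) for Fcgr1, chr1:171018676-171018925 (plus strand) for Fcgr4, chr1:173227230-173227479 (minus strand) for Fcer1a and chr6:123261857-123262106 (plus strand) for Clec4d.
Fcer1g: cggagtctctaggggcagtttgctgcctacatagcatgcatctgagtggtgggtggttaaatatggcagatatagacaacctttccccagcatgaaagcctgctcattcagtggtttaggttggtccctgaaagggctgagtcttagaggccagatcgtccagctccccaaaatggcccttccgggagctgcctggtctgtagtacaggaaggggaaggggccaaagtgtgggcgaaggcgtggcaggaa
Fcgr1: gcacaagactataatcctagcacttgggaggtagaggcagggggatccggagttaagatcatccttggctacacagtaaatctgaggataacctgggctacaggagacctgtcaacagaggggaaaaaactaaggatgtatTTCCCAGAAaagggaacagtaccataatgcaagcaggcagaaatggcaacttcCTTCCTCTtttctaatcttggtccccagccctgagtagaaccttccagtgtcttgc
Fcgr4: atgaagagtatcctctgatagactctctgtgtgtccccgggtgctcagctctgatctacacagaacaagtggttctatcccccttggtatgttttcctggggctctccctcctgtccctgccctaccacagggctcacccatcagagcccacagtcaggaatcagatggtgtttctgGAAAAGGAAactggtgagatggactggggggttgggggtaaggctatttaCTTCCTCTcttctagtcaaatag
Fcer1a: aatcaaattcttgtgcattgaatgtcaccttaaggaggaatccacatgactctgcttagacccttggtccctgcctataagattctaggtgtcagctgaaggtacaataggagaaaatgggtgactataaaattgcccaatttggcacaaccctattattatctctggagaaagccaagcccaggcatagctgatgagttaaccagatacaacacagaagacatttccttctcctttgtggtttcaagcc
Clec4d: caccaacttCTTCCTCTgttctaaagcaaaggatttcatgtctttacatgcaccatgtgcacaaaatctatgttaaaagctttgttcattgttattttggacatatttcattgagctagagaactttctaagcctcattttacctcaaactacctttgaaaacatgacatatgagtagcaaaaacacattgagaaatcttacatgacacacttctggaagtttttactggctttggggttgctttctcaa

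Of all 32851 promoters of this length, 3.67% hold the PU box, 7.02% the GAS and 7.13% the ISRE-type pattern. The Fcgr1 promoter has a PU box and a GAS, Fcgr4 a PU box and an ISRE-type match, and Clec4d a PU box, while those of Fcer1g and Fcer1a have none of these. Promoters were found for 9 of the 10 members and 8 of the 9 receptors, and Lyn and Clec4n are the ones without an entry. Elsewhere, the Vav1 promoter and 1 of Fcgr3 hold a PU box. The GATA pattern (AGATAA, 9.99% of promoters) was found in Lcp2 at 2 places and in Plcg2, Gp6 and Fcer1a, RUNX (TGTGGT, 14%) in Fermt3 at 2 places and in Fcgr4, Fcer1a and Clec4e, and AP-1 (TGANTCA, 6.75%) in 0 of them. A match is a description of the letters in this window. The motifs were chosen with the promoters seen, and the receptors shown were picked for their calls. Whether matches exceed the shares of all promoters was therefore not tested.

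Close relatives of the members were compared as well, since related kinases and adaptors serve the same steps in other blood cells. Of 19 paralogues 18 were above background, and Fermt1 was not. At 1 dpi 3 were called higher and 2 lower, against 12.3% and 2.87% of all genes. At 3 dpi 2 were called higher and 1 lower, against 6.98% and 1.82%. Between 3 and 1 dpi 2 were called higher and 2 lower, against 3.97% and 4.82%. Their medians were 0.04, 0.10 and -0.01. Each sign depended on the scaling, as the first was below 0 under the 4 others, from -0.28 to -0.10, the second was -0.03 with the array median and -0.04 in the deposited table, and the last was above 0 under the 4 others, from 0.17 to 0.20.

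Fermt2, the kindlin of adherent cells, read -4.10, -4.25 and -4.03 in Ctrl, -1.31, -1.62 and -1.47 at 1 dpi, and -1.33, -1.45 and -1.33 at 3 dpi. It rose by 2.66 log2 at 1 dpi (SE 0.10, adjusted p 1.5e-06), and its rise at 3 dpi was 2.76 (adjusted p 9.1e-07), in 3 of 3 arrays each, next to 0.13 and -0.06 for Fermt3. Blnk, the B cell relative of Lcp2, read 2.20, 2.18 and 2.09 in Ctrl, 0.68, 0.70 and 0.66 at 1 dpi, and 1.79, 1.76 and 1.73 at 3 dpi. It fell by 1.48 at 1 dpi (SE 0.06, adjusted p 1.7e-06, lower in 3 of 3 arrays), and the 3 groups did not overlap. Rasgrp1, the lymphoid relative of Rasgrp2, fell by 1.09 at 1 dpi (SE 0.08, adjusted p 3e-05) and overlapped with Ctrl at 3 dpi.

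Lymphoid relatives moved at different times. Zap70, the T cell relative of Syk, rose by 1.01 log2 at 3 dpi (SE 0.10, adjusted p 0.00015), which was 0.79 to 0.96 under the other scalings and so under 2-fold there. Blk, a Src family kinase of B cells, fell by 1.23 at 3 dpi (SE 0.22, adjusted p 0.0043), with -0.54 under normexp. Cd247, the ITAM chain of the T cell receptor, rose by 1.83 at 1 dpi on its brightest probe (SE 0.17, adjusted p 9.6e-05), but its 3 probes ran from -0.63 to 1.83 and the deposited table gave -1.11, so its direction depends on the probe.

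The same arrays carried markers of megakaryocytes and of other marrow cells. For the counts of called markers below, the shares of all genes called at 1 dpi were 12.3% higher and 2.87% lower. At 3 dpi they were 6.98% and 1.82%. An unadjusted p under 0.05 in limma was reached by 62.1% of all genes at 1 dpi and 41.5% at 3 dpi. All 18 megakaryocyte markers were above background, with Pf4 the brightest at 6.04, 6.02 and 6.02 in Ctrl. None was called at 1 or 3 dpi by limma, with 0 at an unadjusted p and a 2-fold change and 11 and 10 at an unadjusted p under 0.05, while after scaling to the array median 2 were called lower at 1 dpi and the deposited table called 1 lower at 3 dpi. Their summed signal, with the Ctrl mean at 1, was 1.09, 0.961 and 0.953 in Ctrl, 0.997, 0.922 and 0.904 at 1 dpi, and 1.05, 1.03 and 1.02 at 3 dpi. The members' own sum was 1.09, 0.973 and 0.941 in Ctrl, 1.26, 1.20 and 1.23 at 1 dpi, and 1.18, 1.11 and 1.1 at 3 dpi, and Fcer1g made up 36.3% of it. Within the megakaryocyte list Mmrn1 fell by 0.96 log2 and Gp1ba by 0.82 at 1 dpi, and Gp9 rose by 0.93 at 3 dpi.

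Most macrophage markers and the mast cell list were higher after irradiation. Of 12 macrophage markers, with Csf1r the brightest, 1 was called lower and 4 higher at 1 dpi, while 10 were called higher at 3 dpi. Without a minimum fold, 9 macrophage markers rose and 3 fell at 1 dpi. The median of that list was then 0.44 log2, and 0.12 with the array median. Their sum was 1.1, 0.973 and 0.928 in Ctrl, 1.62, 1.5 and 1.57 at 1 dpi, and 2.94, 2.84 and 2.77 at 3 dpi. Siglec1 rose by 1.62 and 2.84 log2 and C1qb by 1.51 and 2.51, while Cd163 fell by 2.07 at 1 dpi and rose by 0.74 at 3 dpi. Of 8 mast cell and basophil markers, 1 of which, Fcer1a, is also a γ chain receptor, 5 were called higher at 1 dpi (4 with quantile or normexp values, 3 with the array median) and 2 at 3 dpi (3 with quantile, normexp or deposited values), with Prss34 the brightest. Their sum was 1.1, 0.975 and 0.930 in Ctrl, 3.03, 3.06 and 2.99 at 1 dpi, and 1.92, 1.82 and 1.76 at 3 dpi. Prss34 made up 36.4% of this sum. Tpsb2 went against it, at 1.34 log2 at 1 dpi and 2.01 at 3 dpi. Tpsb2 rose by 0.67 between them (adjusted p 0.0039), while 4 markers of the list fell from 1 to 3 dpi. The order of these sums, highest at 1 dpi for the mast cell and basophil list and at 3 dpi for macrophages, stands beside the receptor values above. Their part in the result was not tested.

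Among other myeloid lists, 0 of 4 monocyte markers were called at 1 dpi, none at an unadjusted p with a 2-fold change and 2 at an unadjusted p under 0.05, and 1 at 3 dpi, Ccr2, at 1.63 log2. The sum, with Chil3 the brightest, was 1.06, 0.972 and 0.968 in Ctrl, 1.47, 1.40 and 1.38 at 1 dpi, and 1.03, 0.928 and 0.993 at 3 dpi, while the list's median at 1 dpi was 0.22 log2 and below 0 under each other scaling, from -0.24 to -0.07. Of 12 neutrophil markers 2 were called higher at 1 dpi, S100a8 and S100a9, and 0 under each other scaling. At 3 dpi limma called 0, with 2 at an unadjusted p under 0.05. The neutrophil sum, with Mpo the brightest, was 0.973, 1.02 and 1.01 in Ctrl, 1.68, 1.57 and 1.56 at 1 dpi, and 1.09, 0.979 and 1.03 at 3 dpi, while its median at 1 dpi was 0.62 log2, 0.31 with the array median, -0.04 with quantile values, -0.01 with normexp and -0.19 in the deposited table. Of 6 dendritic cell markers above background (Xcr1 was not), 1 was called higher (0 under each other scaling) and 2 lower at 1 dpi (3 with quantile values or the array median, 4 of 5 in the deposited table), and 1 lower at 3 dpi. That sum rests on Siglech, which was low on Ctrl replicate 1 (3.67, against 4.80 and 4.84), and read 0.627, 1.17 and 1.20 in Ctrl, 1.89, 1.76 and 1.70 at 1 dpi, and 1.04, 0.921 and 0.900 at 3 dpi. In the deposited table Siglech was at -2.08 at 1 dpi.

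Lymphoid and erythroid lists, the former from cells that also express Blnk, Blk, Btk or Zap70, went in different directions. Of 10 B cell markers 8 were called lower at 1 dpi and 8 at 3 dpi, and the sum, with Cd79b the brightest, was 1.02, 0.980 and 1.00 in Ctrl, 0.258, 0.249 and 0.256 at 1 dpi, and 0.247, 0.227 and 0.234 at 3 dpi. Vpreb3 fell by 5.42 and 3.96 log2. Of 9 T and NK cell markers 2 were called higher at 1 dpi (0 after scaling to the array median) and 4 at 3 dpi, among them Gzma at 1.19 and 2.23, and the sum, with Nkg7 the brightest, was 0.980, 1.04 and 0.985 in Ctrl, 1.46, 1.35 and 1.36 at 1 dpi, and 1.27, 1.15 and 1.12 at 3 dpi. Nkg7 makes up 88.1% of that sum, so its order is that of Nkg7, while the list's median was 0.56 at 1 dpi and 0.76 at 3 dpi (0.55 and 0.49 after quantile normalization, 0.22 and 0.38 with normexp, 0.25 and 0.64 with the array median, and 0.56 and 0.98 in the deposited table). Of 9 erythroid markers 8 were called lower at 1 dpi and 9 at 3 dpi, and the sum was 1.03, 0.993 and 0.977 in Ctrl, 0.219, 0.179 and 0.172 at 1 dpi, and 0.172, 0.181 and 0.175 at 3 dpi. Ahsp was the brightest of them in Ctrl and at 3 dpi and Alas2 at 1 dpi, when Alas2 rose by 0.72 log2 (adjusted p 0.002) against the rest of the list, which was 0.40 without passing with the array median. At 1 dpi Rhag and Epb42 were below background on every array, at least 5.24-fold and 4.06-fold lower. Their part in the members' values was not tested.

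Most stromal and endothelial markers, whose cells use the kindlin Fermt2, were higher at both times, but Pdgfrb fell by 0.41 and 0.39 log2 at 1 and 3 dpi (adjusted p 0.012 and 0.024), Tek fell by 0.91 at 1 dpi (adjusted p 0.0004) and did not pass at 3 dpi (0.02, and below 0 under the other scalings), Lepr did not pass at 3 dpi (0.42, adjusted p 0.35) and fell by 0.97 from 1 to 3 dpi (adjusted p 0.038, with 3.52 in the deposited table), and Pdgfra did not pass, though it was called at both times in the deposited table. Of 7 stromal markers 4 were called higher at 1 dpi and 4 at 3 dpi, and the sum, with Cxcl12 the brightest, was 1.02, 0.969 and 1.01 in Ctrl, 5.05, 4.36 and 4.73 at 1 dpi, and 9.29, 8.45 and 9.16 at 3 dpi. Of 6 endothelial markers 3 were called higher at 1 dpi and 5 at 3 dpi, and the sum, with Stab2 the brightest, was 1.08, 0.947 and 0.973 in Ctrl, 1.90, 1.71 and 1.77 at 1 dpi, and 4.16, 3.46 and 3.57 at 3 dpi. Tek was called lower at 1 dpi with quantile, array median and deposited values, and 2, 1 and 2 endothelial markers were called higher there. Their part in the result was not tested. In these bulk samples fewer cells of a type and less RNA per cell cannot be told apart.

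**Figure D5:**
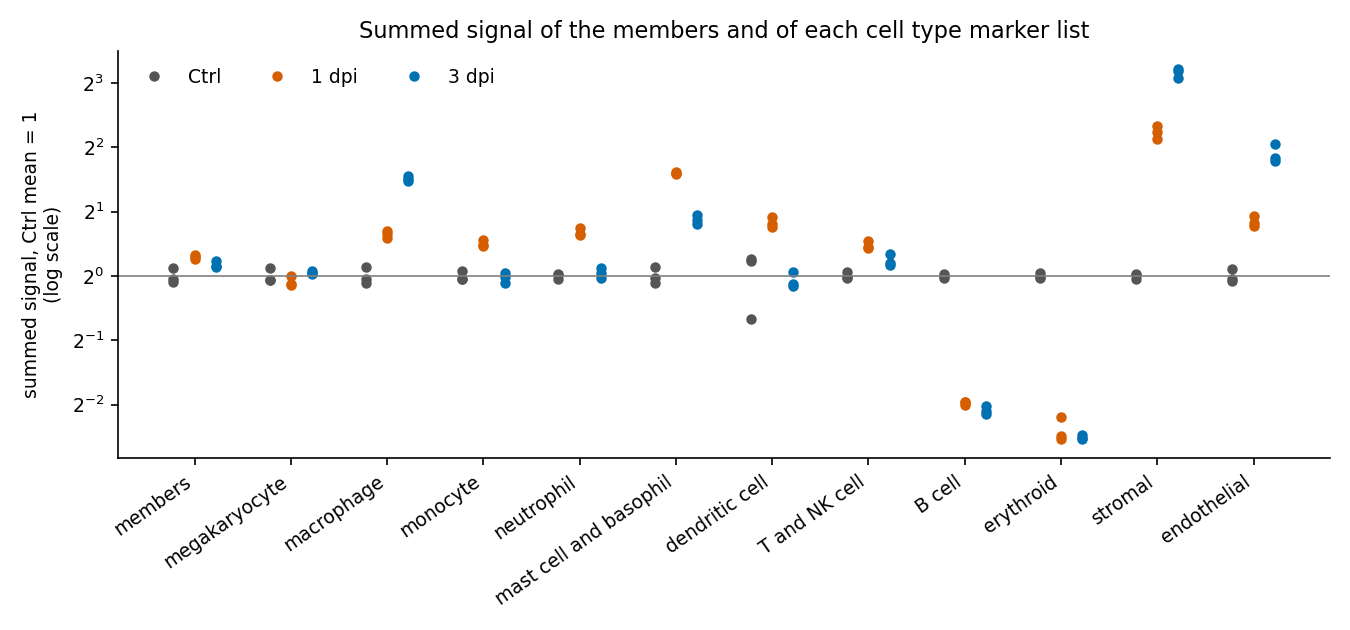
Summed signal of the members and of 11 cell type marker lists on each array, with the mean of the 3 Ctrl arrays at 1 (vertical axis, log scale); points are arrays. The members' sum was 1.23 at 1 dpi and 1.13 at 3 dpi on average, against 4.71 and 8.97 for stromal, 1.56 and 2.85 for macrophage and 0.254 and 0.236 for B cell markers.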

How the data were processed

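The authors deposited Agilent 1-colour spot intensity values from Feature Extraction 10.7.1.1, with background subtracted and no scaling between arrays, and a log2 table of 27275 gene names whose making is not described. The paper names other platforms (Affymetrix Mouse Gene 1.0 ST in its methods, RNA-seq in its results), so its processing was not taken over. Intensities were log2 transformed and each array's 75th percentile was subtracted. A probe was kept if 1 group or more had it well above background on each of its 3 arrays, and a gene was represented by its brightest probe. Groups were fitted together with limma 3.58.1 in R 4.3.3, with Benjamini-Hochberg adjustment over 29410 genes. Named genes are the members, 6 fixed partners, the inhibitory receptors, the γ chain receptors, up to 5 called partners or paralogues in each direction with the largest change, and of each list the marker brightest over all arrays and the 2 most changed, except 3 genes that are counted in their lists and not reported here. The members and lists were chosen with earlier results of these data known, and the motifs with the promoters seen. The alternatives were other scalings, filters, probe choices, blocks and tests, and leaving out each array.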

Additional observations from a re-analysis of the deposited data

Results flagged for a closer look

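Of 35 genes of the route named here, 19 differed between the time points when their changes at 3 dpi and at 1 dpi were compared directly in limma, and the value is the log2 change at 3 dpi minus that at 1 dpi. Of all genes 44.6% passed the same comparison, and some of the genes here were named for their large changes, so whether 19 exceeds that share was not tested. Groups of 3 arrays were not tested for outliers.

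Higher at 3 than at 1 dpi were Rasgrp1 by 1.23, Yes1 by 1.21, Blnk by 1.08, Clec4n by 1.03, Gp6 by 0.96, Mpig6b by 0.93, Zap70 by 0.83, Clec1b by 0.77, Lcp2 by 0.40, Itgb3 by 0.31 and Fcgr1 by 0.23. For Rasgrp1 and Blnk the difference is a fall at 1 dpi followed by a higher level at 3 dpi, and for Gp6 it is a rise at 3 dpi from the Ctrl level. Clec1b also rose at 3 dpi, but its 1 dpi arrays lay below all Ctrl arrays, at -0.10 without passing.

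Lower at 3 than at 1 dpi were Oscar at -0.26, Tln1 at -0.41, Itga2b at -0.72, Fcgr4 at -0.82, Pirb at -0.90, Clec4d at -0.95, Blk at -1.01 and Cd247 at -1.64. Cd247 depends on the probe, with 2.03 in the deposited table, the other Itgb3 probe stood at 0.01, the Pirb probes ran from -0.90 to -0.06, Fcgr1 was 0.18 after quantile normalization, and Tln1 was -0.13 there.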

How the results depend on the processing

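Of 660 member values across 30 member comparisons and 22 alternatives, 549 kept direction and side of the threshold, 23 lost the threshold, 54 passed it and 34 changed sign, and of 273 counts 226 stayed within 1.5 times. The number of arrays and the signal over background, lowest on Ctrl replicate 1, limit all of them. The lower intensity of the 1 dpi arrays also limits the comparisons with 1 dpi. The cause was not tested for any change below. The methods' t-test without adjustment was added after the data were seen.

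Genes called fell to 1677, 1139 and 1084 with normexp (1 dpi, 3 dpi, 3 against 1 dpi), reached 16443, 9416 and 13125 without a minimum fold, and 4489 between 3 and 1 dpi without the filter. Members called were 1 at 1 dpi in the deposited table, and 5, 1 and 1 without a minimum fold. Members at an adjusted p under 0.05 at 1 dpi numbered 3 after quantile normalization and 2 with the array median. At 3 dpi they numbered 2 with quantile, normexp, deposited values and slide as a random or fixed block, 0 with the array median, and 3 in the unadjusted t-test. Between 3 and 1 dpi they numbered 4 with quantile and deposited values, 3 with normexp, with probes above background on all 9 arrays and with only the 2 groups compared, 2 with the mean of probes, and 5 with slide as a random or fixed block and in the t-test, adjusted or not. Partners called at 1 dpi were 6 in the deposited table and 23 without a minimum fold. At 3 dpi they were 1 with normexp, 4 in the deposited table and 18 without a minimum fold, and between 3 and 1 dpi 3 with the array median, 0 with normexp (0 higher and 0 lower), 4 in the deposited table and 22 without a minimum fold.

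With the replicate number as a block, 4273, 2498 and 2494 genes were called and 4, 1 and 2 members passed at an adjusted p under 0.05. The block moved the last count from 1 to 2 and moved no other of these counts by over 1.5 times. Same-numbered arrays deviated from their group means with correlations of -0.11, -0.07 and -0.04 (1 dpi and Ctrl), 0.03, -0.08 and 0.09 (3 dpi and Ctrl) and 0.13, 0.06 and 0.02 (3 and 1 dpi). These values give no sign of pairing, and with 3 arrays a group they cannot exclude it. Not every array correlated best with its own number.

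Leaving out 1 array at a time gave 3561 to 5367, 2347 to 2768 and 2264 to 2812 genes called, 0 to 0 members called in each comparison, 4 to 5, 1 to 2 and 1 to 5 members at an adjusted p under 0.05, and 0 to 0, 2 to 2 and 1 to 2 partners called. Without Ctrl replicate 1, 5 members passed between 3 and 1 dpi.

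After quantile normalization the sign changed for Syk (-0.02) and Fyn (-0.09) at 1 dpi and for Plcg2 (0.13) and Vav1 (0.02) between 3 and 1 dpi. With normexp it changed for Syk (-0.03) and Fyn (-0.06) at 1 dpi and for Plcg2 (0.14) and Vav1 (0.02) between 3 and 1 dpi. With the array median it changed at 1 dpi for Syk (-0.23), Fyn (-0.29), Vav1 (-0.02), Rasgrp2 (-0.18) and Fermt3 (-0.18), at 3 dpi for Rasgrp2 (-0.01), and between 3 and 1 dpi for Plcg2 (0.14), Vav1 (0.06) and Rasgrp2 (0.17). In the deposited table it changed for Fyn at 1 dpi (-0.09), Lcp2 (-0.64) and Rasgrp2 (-0.04) at 3 dpi, and Fcer1g (0.05) and Plcg2 (0.11) between 3 and 1 dpi. With the mean of probes Lcp2 was -0.13 at 3 dpi. With slide as a random block Fyn was -0.04 at 1 dpi and Btk 0.01 at 3 dpi, and as a fixed block Fyn was -0.06, Btk 0.02 and Plcg2 0.01. Leaving out 1 array gave -0.06 to 0.09 for Fyn at 1 dpi, -0.06 to 0.02 for Btk and -0.11 to 0.01 for Plcg2 at 3 dpi, and -0.05 to 0.01 for Rasgrp2 between 3 and 1 dpi. Each of these values was close to 0 or did not pass the test with the 75th percentile, except Vav1 at 1 dpi, which passed there.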
